A study of Mus musculus with 18 samples.

Results

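The epididymis, the coiled duct in which sperm mature, secretes proteins of several expanded gene families, and 93 genes of these families were followed through the gonadal fat of young male mice. The members were picked by their gene names, with no value in the rule, out of 23905 gene names in the transcript tables: beta-defensins (Defb), whey acidic protein domain inhibitors (Wfdc), Kazal-type serine protease inhibitors (Spink), lipocalins (Lcn5, 6, 8 to 12), ribonuclease A-like proteins (Rnase9 to 13), cystatins (Cst8, 11 and 12), cysteine-rich secretory proteins (Crisp), Gpx5 and Adam7. A member's level is its FPKM, the fragment number scaled to transcript length and library size, summed over the transcript models of its name. Samples came from C57BL/6 males aged 3 weeks whose dams had been given bisphenol A (BPA) in corn oil by gavage at 5 mg/kg daily from 1 to 20 days post-conception, or the corn oil vehicle. For each of gonadal adipose, hypothalamus and liver there are 3 BPA and 3 vehicle samples, 18 in all, with the BPA offspring drawn from 4 litters and the vehicle offspring from 3.

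The expression columns are headed by a tissue and a number that occurs in no label. Which columns hold BPA offspring is therefore not known, and no value here compares the treatments. Columns are named by their headings: adipose 03, 10, 15, 25, 41 and 42, and hypothalamus and liver 03, 13, 15, 25, 28 and 42. Each tissue has its own table and its own transcript assembly, so levels in different tissues are set side by side without a test. The files hold FPKM only, so the depth behind a value is unknown. A listed 0 need not mean that no RNA was there, because Gapdh and Vcp, which every cell uses, were listed at 0 in all 6 adipose columns. The 8 adipocyte genes on the list summed to 6639 FPKM or more in each of the 6 adipose columns, led by Fabp4 and Cfd. Adipoq, the adiponectin gene, lay between 462 and 885 FPKM in adipose, against 0 in every hypothalamus and liver column. Lep, also on the list, was not high: it was listed at 0 in adipose 03, 15 and 25 and reached 2.96 FPKM at most. Adipose 03, 41 and, in part, 10 stood apart from adipose 15, 25 and 42 in the family members, and counts are given with and without them.

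Most of these genes are known for their place along the male tract. The initial segment, caput, corpus and cauda of the epididymis each secrete their own set of proteins onto passing sperm, largely under the control of androgens. Defensins are small cationic peptides that kill microbes and also coat sperm, Spink and Wfdc proteins restrain proteases, lipocalins carry small lipophilic molecules, and cystatins are related to inhibitors of cysteine proteases. The gonadal fat pad of the male mouse lies against the epididymis.

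The family genes were abundant in adipose 03, 41 and 10 and near 0 in adipose 15, 25 and 42. In total 73 of the 93 members reached 1 FPKM in at least 1 adipose column, the level called detected here. The background was 50.8% of all gene names. Summed over the members, the level was 10905 FPKM in adipose 03, 1946 in adipose 10, 9.26 in adipose 15, 16.6 in adipose 25, 7097 in adipose 41 and 4.76 in adipose 42. The members thus held 5.35% of the FPKM of all names in adipose 03 and 3.59% in adipose 41, but 0.00296% in adipose 42. Hypothalamus columns summed to between 6.90 and 10.7 FPKM and liver columns to between 21.8 and 29.4 FPKM. The liver sums were thus above those of adipose 15, 25 and 42. The headings 03, 15, 25 and 42 occur in all 3 tissues, what they stand for is not stated in the labels, and the members summed to 9.60 FPKM in hypothalamus 03 and 22.3 in liver 03. Fewer cells of a type and less RNA per cell cannot be told apart in such bulk samples.

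**Figure D1:**
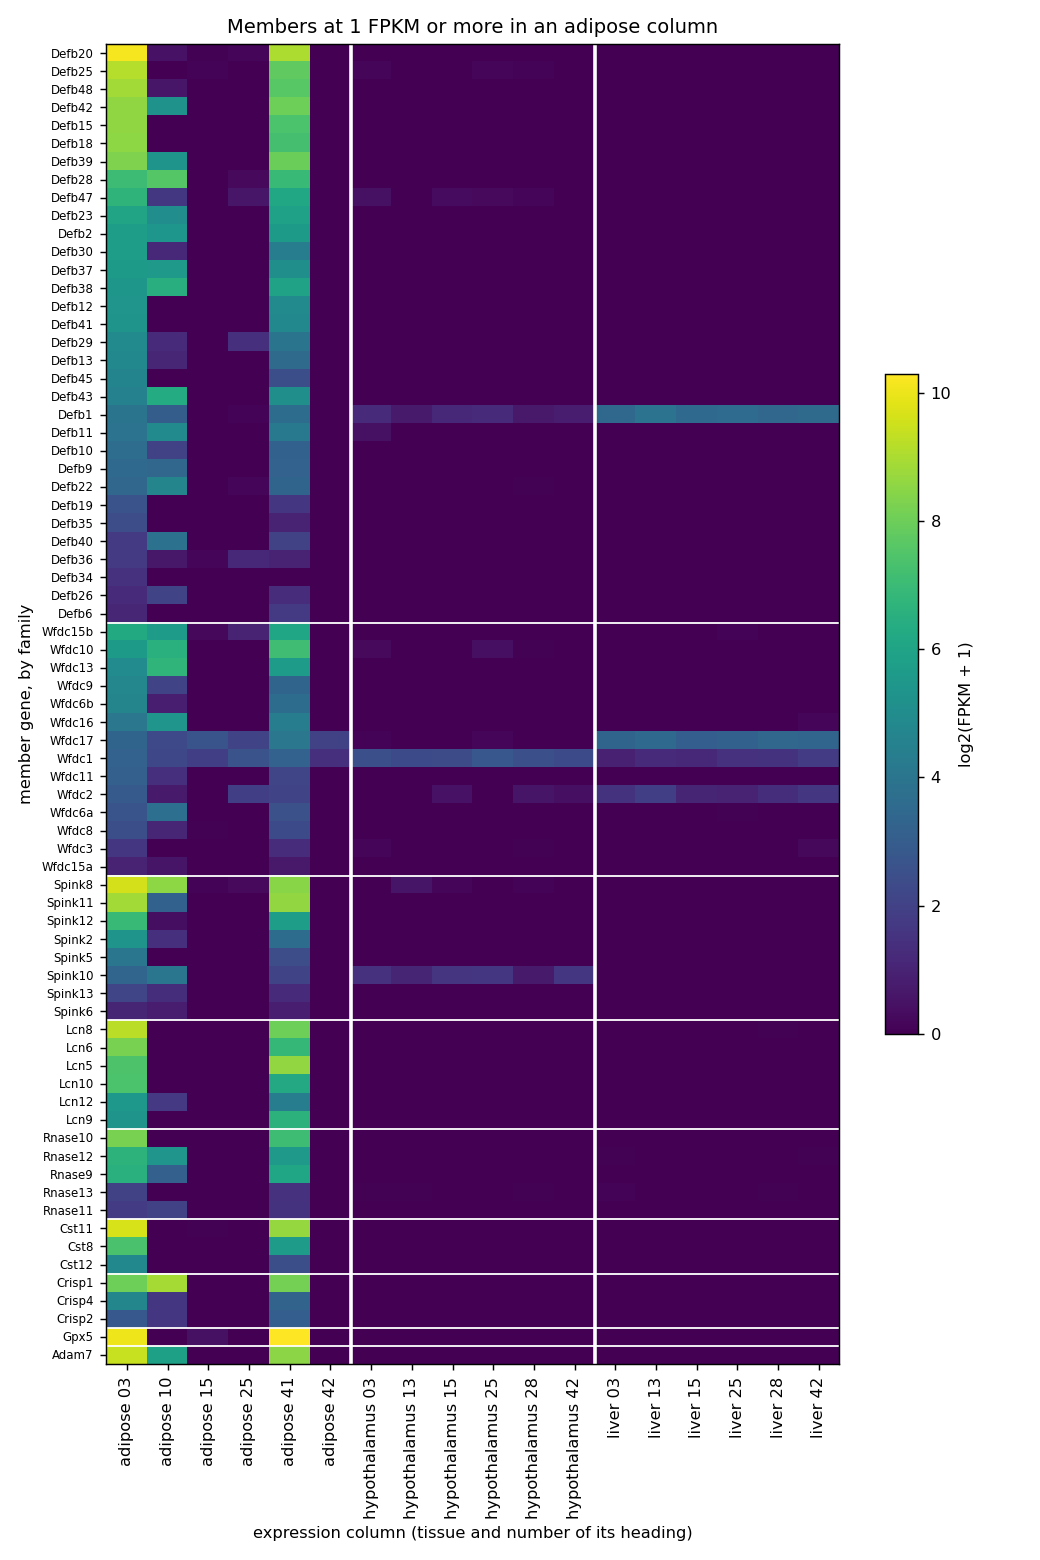
Level of each of the 73 detected members (rows, by family) in the 18 expression columns (adipose, hypothalamus, liver), as log2(FPKM + 1) by colour. Columns adipose 03 and 41 are bright in nearly every row, adipose 10 in some, and adipose 15, 25 and 42 share only Wfdc1 and Wfdc17 at 1 FPKM or more.

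The number of members at 1 FPKM or more was 73 in adipose 03, 42 in adipose 10, 2 in adipose 15, 6 in adipose 25, 70 in adipose 41 and 2 in adipose 42. The background share of all names at that level was 45.7%, 43.0%, 41.1%, 42.4%, 44.4% and 39.7% in the same order. Among the 100 most abundant gene names of a column, 15 were members in adipose 03, 11 in adipose 41, 3 in adipose 10 and 0 in each other adipose column. Adipose 03 was the highest adipose column for 53 of the 73 detected members (background 32.8%), adipose 10 for 13 and adipose 41 for 7. In 71 of the 73 the listed value in adipose 42 was 0, against 10.7% of detected names. Without adipose 03, 10 and 41, 6 of the 93 members were detected (background 45.6%): Wfdc1, Wfdc17, Wfdc2, Defb29, Defb36 and Wfdc15b.

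Set beside the other tissues, the highest adipose column exceeded every hypothalamus and liver column for 73 of 73 members (background 37.0%). Members were counted as detected for their level in adipose, so nothing is read from that share. No member had all 6 adipose columns above all 12 others (0 of 73, background 11.6%). One listed 0 or low value in adipose 15, 25 or 42 is enough to fail that count. Of the detected members, 53 were listed at 0 in all 12 hypothalamus and liver columns (background 4.80% of detected names).

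Spink8 (chr9:109811971-109826685, mm10), a Kazal-type inhibitor made in the epididymis, had the highest adipose median of all members. It stood at 788 FPKM in adipose 03, 367 in adipose 10, 0.0784 in adipose 15, 0.206 in adipose 25, 353 in adipose 41 and 0 in adipose 42. Adipose 03, 10 and 41 are thus high, the other 3 are near 0, and no column lies between. The median of 177 FPKM averages a high and a low column, and without adipose 03, 10 or 41 it is 0.206 FPKM. In hypothalamus it reached 0.491 FPKM at most, and in liver it was listed at 0 throughout.

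Wfdc10, a whey acidic protein domain gene, had 47.4 FPKM in adipose 03, 91.8 in adipose 10, 0 in adipose 15 and 25, 139 in adipose 41 and 0 in adipose 42. The same columns were high as for Spink8, but in another order, with adipose 41 on top and adipose 03 lowest of the high ones. Lcn5, the epididymal retinoic acid-binding lipocalin, had 168 FPKM in adipose 03 and 388 in adipose 41 and was listed at 0 in adipose 10, 15, 25 and 42. Adipose 10, high for Spink8 and Wfdc10, was thus with the low columns for Lcn5. The planned correlations among these 3 genes and Adipoq were not computed, because the largest gap between neighbouring values, on the scale of log2(FPKM + 1), took 0.852 of the range for Spink8, 0.785 for Wfdc10 and 0.860 for Lcn5. The columns form separate clusters, so the values alone are given.

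The promoters of Lcn5 and Wfdc10 are printed beside those of Rnase10 and Crisp1, because the 4 genes differ in adipose 10: Lcn5 and Rnase10 were listed at 0 there and Wfdc10 and Crisp1 were higher there than in adipose 03. Sequences are from RefSeq on GRCm38.p6, 250 bases before to 50 after the annotated start, 5′ to 3′ on the gene's strand. Capitals mark AGAACA or its reverse complement TGTTCT, core letters of the response elements of some steroid hormone receptors, the androgen and glucocorticoid receptors among them.
Lcn5 promoter, chr2:25657702-25658001, plus strand: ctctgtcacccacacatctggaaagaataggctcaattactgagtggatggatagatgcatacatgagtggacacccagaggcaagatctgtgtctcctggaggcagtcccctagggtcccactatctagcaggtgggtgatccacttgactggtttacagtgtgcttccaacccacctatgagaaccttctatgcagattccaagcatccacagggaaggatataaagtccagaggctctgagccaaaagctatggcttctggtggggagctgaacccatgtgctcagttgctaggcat
Rnase10 promoter, chr14:51007501-51007800, plus strand: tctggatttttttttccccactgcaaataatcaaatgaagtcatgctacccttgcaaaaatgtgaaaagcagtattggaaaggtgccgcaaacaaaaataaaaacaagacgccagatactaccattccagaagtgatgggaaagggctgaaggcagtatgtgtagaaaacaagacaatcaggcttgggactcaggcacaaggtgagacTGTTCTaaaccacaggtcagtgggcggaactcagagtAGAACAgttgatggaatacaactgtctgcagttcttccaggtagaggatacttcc
Wfdc10 promoter, chr2:164655796-164656095, plus strand: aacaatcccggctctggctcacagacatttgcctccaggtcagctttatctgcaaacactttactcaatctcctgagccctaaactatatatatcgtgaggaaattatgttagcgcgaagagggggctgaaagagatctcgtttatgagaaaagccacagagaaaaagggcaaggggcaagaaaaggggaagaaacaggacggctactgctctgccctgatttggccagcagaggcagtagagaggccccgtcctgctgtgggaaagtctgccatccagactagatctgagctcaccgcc
Crisp1 promoter, chr17:40319158-40319457, minus strand: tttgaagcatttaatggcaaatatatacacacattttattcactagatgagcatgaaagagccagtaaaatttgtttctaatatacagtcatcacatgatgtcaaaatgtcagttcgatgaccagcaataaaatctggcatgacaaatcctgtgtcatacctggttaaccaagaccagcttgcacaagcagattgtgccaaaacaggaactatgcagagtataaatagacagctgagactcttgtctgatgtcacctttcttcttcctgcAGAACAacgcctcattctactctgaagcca
The 6-base core occurs 2 times in the Rnase10 stretch and 1 time in that of Crisp1, where it lies after the start, and it is not in the stretches of Lcn5 and Wfdc10. A RefSeq promoter of this length was found for 63 members. Of these, 29 (46.0%) hold AGAACA on either strand, against 19.0% of 27025 promoters, 1 a gene. Among the 52 detected members with a promoter, 24 hold it. Promoters of clustered paralogs are not independent, and a relation of the letters to level was not tested. The members' promoters had a median GC content of 48.7%, against 52.7% over all promoters. The 15-base palindrome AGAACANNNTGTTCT was in 0 members' promoters and in 1 promoter overall. A match describes these letters and not a bound site.

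The assembled models bear on which start was used. Wfdc10 had 5 adipose models. The one beginning at chr2:164656046, the RefSeq start, held 88.3 of the 91.8 FPKM in adipose 10 and 99.6 of the 139 FPKM in adipose 41. It held 1.51 of the 47.4 FPKM in adipose 03, where a model beginning upstream at chr2:164653758 held 45.7 FPKM. The leading model of Wfdc10 thus began at different places in adipose 03 and in the other columns that were high. These models overlap the spans of Wfdc9 and Wfdc11, and strandedness is not given, so reads of these neighbours may enter them. Wfdc9 had 26.4 FPKM in adipose 03, 3.38 in adipose 10 and 9.07 in adipose 41. A switch of start was not tested. For Lcn5, the leading model began at chr2:25657905, inside the printed stretch and upstream of the RefSeq start at chr2:25657952, in both columns that held it, with 384 FPKM in adipose 41 and 147 FPKM in adipose 03. Spink8 also changed its leading model: in adipose 03 it began at chr9:109811971 with 343 FPKM, and in adipose 10 and 41 at chr9:109816627 with 172 and 227 FPKM. How the assembler divides reads between overlapping models of a name is an estimate. Of 39 detected members with more than 1 adipose model and at 1 FPKM or more in at least 2 of adipose 03, 10 and 41, 12 had a different leading model between those columns (background 22.8% of such names).

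The beta-defensins were the largest family, with 43 members, 32 of them detected, and their summed level was 4362 FPKM in adipose 03, 647 in adipose 10, 0.212 in adipose 15, 3.83 in adipose 25, 2363 in adipose 41 and 0 in adipose 42. Their levels in adipose 10 were graded. Of the 32, 19 were at 1 FPKM or more there, 10 were listed at 0, and Defb20, Defb36 and Defb48 were above 0 and under 1 FPKM. Defb28 had 131 FPKM in adipose 03, 188 in adipose 10, 0 in adipose 15, 0.195 in adipose 25, 122 in adipose 41 and 0 in adipose 42, so adipose 10 was the highest. Defb2 had 53.2, 41.3 and 47.5 FPKM in adipose 03, 10 and 41 and was listed at 0 in the other 3 adipose columns. Defb42 had 386 FPKM in adipose 03, 38.2 in adipose 10 and 256 in adipose 41, and again 0 in the other 3, so adipose 10 was well below the 2 highest.

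Defb37, Defb38 and Defb39 are neighbours on chromosome 8 and close paralogs, so the division of reads between them is uncertain. Defb37 had 47.7 FPKM in adipose 03, 45.3 in adipose 10 and 33.6 in adipose 41. Defb38 had 42.8 FPKM in adipose 03, 86.3 in adipose 10 and 59.4 in adipose 41. Defb39 had 314 FPKM in adipose 03, 39.5 in adipose 10 and 253 in adipose 41. All 3 were listed at 0 in adipose 15, 25 and 42, and adipose 10 was on top for Defb38 and far below for Defb39. Their paralog Defb40 had 13.4 FPKM in adipose 10, against 2.35 in adipose 03 and 3.12 in adipose 41.

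The most abundant member of any kind in adipose 03 was Defb20, singled out after its values were seen. It had 1134 FPKM in adipose 03, 0.423 in adipose 10, 0.0376 in adipose 15, 0.117 in adipose 25, 523 in adipose 41 and 0 in adipose 42. Adipose 10 was thus under 1 FPKM for this gene, like adipose 15, 25 and 42. The same column pattern, 1 FPKM or more in adipose 03 and 41 only, was shared by Defb6, Defb12, Defb15, Defb18, Defb19, Defb25, Defb35, Defb41, Defb45 and Defb48, at between 1.12 FPKM (Defb6) and 563 FPKM (Defb25) in adipose 03. Defb1, Defb9, Defb10, Defb11, Defb13, Defb22, Defb23, Defb26, Defb30, Defb43 and Defb47 were at 1 FPKM or more in adipose 10 as well and in no further adipose column. Defb22, the mouse defensin of the sperm surface coat, had 24.6 FPKM in adipose 10, against 9.58 in adipose 03 and 9.03 in adipose 41. Defb29 and Defb36 also reached 1 FPKM in adipose 25, at 1.60 and 1.23 FPKM, and Defb34 reached it in adipose 03 alone, at 1.75 FPKM. Defb41 shares its locus with Gm15386, and Defb47 with Defb48, so their levels are uncertain.

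Defb1 is the defensin that epithelia make all the time, and it was the most abundant member in every liver column. Its adipose values were 14.5 FPKM in adipose 03, 7.20 in adipose 10, 0 in adipose 15, 0.0599 in adipose 25, 11.6 in adipose 41 and 0 in adipose 42. Hypothalamus held 0.637 to 1.42 FPKM and liver 9.60 to 14.0 FPKM. Adipose 41 thus lay within the range of the liver columns, adipose 03 just above it, and the other 4 adipose columns below it.

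The 17 Wfdc genes, 14 of them detected, had a sum of 264 FPKM in adipose 03, 314 in adipose 10, 8.54 in adipose 15, 12.4 in adipose 25, 338 in adipose 41 and 4.76 in adipose 42. Wfdc10 and Wfdc13 held 91.8 and 105 of the 314 FPKM in adipose 10. By members, 4 of the 14 Wfdc genes and 7 of the 32 defensins were higher in adipose 10 than in adipose 03. The background was 42.8% of detected names, so neither family stood above the usual share. Wfdc15b had 74.4 FPKM in adipose 03, 48.7 in adipose 10, 0.158 in adipose 15, 1.03 in adipose 25, 67.0 in adipose 41 and 0 in adipose 42. Its close paralog Wfdc15a, with which it may exchange reads, stood at 1.03 FPKM in adipose 03 and lower elsewhere. Wfdc13 was higher in adipose 10 (105 FPKM) than in adipose 03 (30.2) and adipose 41 (50.1), and so were Wfdc16 and Wfdc6a. Wfdc8, Wfdc9 and Wfdc11 were at 1 FPKM or more in the same 3 columns, highest in adipose 03, and Wfdc3 and Wfdc6b in adipose 03 and 41 only.

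Wfdc17 and Wfdc1 were present in every adipose column and are known outside the epididymis, so the pattern above does not hold for the whole name family. Wfdc17, a macrophage protein, had 8.86 FPKM in adipose 03, 3.81 in adipose 10, 5.35 in adipose 15, 3.34 in adipose 25, 15.8 in adipose 41 and 3.03 in adipose 42, with 7.48 to 10.4 FPKM in liver and at most 0.117 FPKM in hypothalamus. The 5 macrophage genes in the tables, led by Lyz2, C1qa and Mrc1, summed to 194, 101, 121, 89.1, 166 and 84.5 FPKM in the same order. Csf1r, the macrophage growth factor receptor, had 18.6 FPKM in adipose 03 and was listed at 0 in the other 5 adipose columns. The part of macrophages in the Wfdc17 values was not tested. Wfdc1, a secreted inhibitor-like protein, had 8.34 FPKM in adipose 03, 3.67 in adipose 10, 2.71 in adipose 15, 5.22 in adipose 25, 8.33 in adipose 41 and 1.73 in adipose 42, with 3.99 to 5.94 FPKM in hypothalamus and 0.929 to 2.54 in liver. Wfdc2, an inhibitor-like protein of many ducts and airways, had 6.61 FPKM in adipose 03, 0.689 in adipose 10, 2.78 in adipose 25 and 3.27 in adipose 41, was listed at 0 in adipose 15 and 42, and had 1.06 to 2.71 FPKM in liver.

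**Figure D2:**
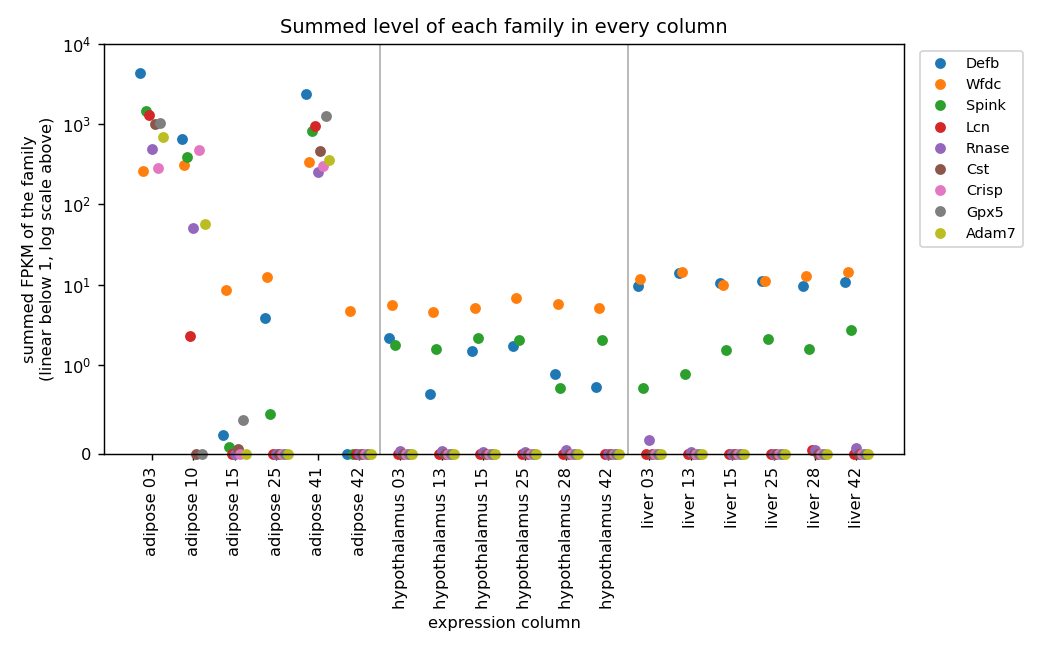
Summed FPKM of each family (colour) in the 18 expression columns, on an axis that is linear below 1 FPKM and logarithmic above. All families are high in adipose 03 and 41; Lcn, Cst and Gpx5 drop in adipose 10, to 2.31, 0 and 0 FPKM, and Wfdc (314 FPKM) and Crisp (479 FPKM) do not.

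Of 12 Spink genes, 8 were detected, and their sum was 1447 FPKM in adipose 03, 395 in adipose 10, 0.0784 in adipose 15, 0.454 in adipose 25, 819 in adipose 41 and 0 in adipose 42. Spink8 accounted for 367 of the 395 FPKM in adipose 10. Spink11 had 468 FPKM in adipose 03 and 392 in adipose 41, but 8.21 in adipose 10. Spink10 was higher in adipose 10 (15.5 FPKM) than in adipose 03 (9.32) or 41 (3.31), and reached 0.661 to 2.07 FPKM in hypothalamus. Spink2, an inhibitor known from male germ cells, and Spink13 shared the 3 columns, at 39.3 and 3.41 FPKM in adipose 03. Spink5, known from skin, and Spink12 were at 1 FPKM or more in adipose 03 and 41 only. Spink6 reached 1.07 FPKM in adipose 03 and less in each other column. Spink3, the trypsin inhibitor of pancreas, was at most 0.248 FPKM in adipose and 0.736 to 2.71 FPKM in liver.

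The lipocalins, the cystatins and Gpx5 had little or nothing in adipose 10. Lcn8, which is made in the proximal epididymis, had 599 FPKM in adipose 03, 262 in adipose 41 and 0 in the other 4 adipose columns. Lcn5, Lcn6, Lcn9 and Lcn10 were likewise listed at 0 in adipose 10, and Lcn12 alone had a value there, of 2.31 FPKM, against 44.3 in adipose 03 and 19.0 in adipose 41. The 3 cystatins Cst8, Cst11 and Cst12 were all listed at 0 in adipose 10. Cst11 had 821 FPKM in adipose 03 and 403 in adipose 41, with 0.0540 FPKM in adipose 15 and 0 elsewhere. Gpx5, the secreted glutathione peroxidase of the caput, had 1039 FPKM in adipose 03, 0 in adipose 10, 0.381 in adipose 15, 0 in adipose 25, 1252 in adipose 41 and 0 in adipose 42. That made it the most abundant member in adipose 41. Lcn8, Cst11 and Gpx5 were singled out after their values were seen.

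Crisp1, which binds sperm during epididymal transit, went the other way from these. It had 256 FPKM in adipose 03, 475 in adipose 10, 0 in adipose 15 and 25, 282 in adipose 41 and 0 in adipose 42. It was the most abundant member in adipose 10 and is the promoter printed above with the core after its start. Crisp4 had 25.6 FPKM in adipose 03, 2.11 in adipose 10 and 8.71 in adipose 41, and Crisp2, known from testis, had 6.05, 2.08 and 7.32 FPKM in the same columns. So within 1 family of similar proteins, adipose 10 was on top for Crisp1 and lowest of the 3 for Crisp2 and Crisp4.

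Among the 5 ribonuclease-like genes, all detected, Rnase12 had 100.3 FPKM in adipose 03, 40.4 in adipose 10 and 46.9 in adipose 41 and was listed at 0 in the other 3. Rnase9 had 92.8, 8.03 and 67.4 FPKM in adipose 03, 10 and 41, and Rnase11 had 2.55, 3.10 and 1.82. Rnase10, whose promoter is printed above, had 296 FPKM in adipose 03, 136 in adipose 41 and 0 in adipose 10, and Rnase13 also stayed with adipose 03 and 41. Adam7, an epididymal membrane protein that is passed to sperm, had 691 FPKM in adipose 03, 57.3 in adipose 10, 0 in adipose 15 and 25, 362 in adipose 41 and 0 in adipose 42.

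Counted over families, 38 of the 73 detected members were at 1 FPKM or more in adipose 03, 10 and 41 and in no other adipose column (background 2.07% of detected names). A further 26 were at that level in adipose 03 and 41 only (background 3.04%). At a level of 5 FPKM in place of 1, the first count was 22. Both column sets were picked after the members' values were seen, so the background shares beside them are no test. All 73 detected members reached 1 FPKM in adipose 03, so the patterns differ only in the other columns. The remaining members were Defb34, Spink6 and Wfdc15a in adipose 03 only, Wfdc1 and Wfdc17 in all 6 columns, Defb29 and Wfdc15b in adipose 03, 10, 25 and 41, and Defb36 and Wfdc2 in adipose 03, 25 and 41.

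**Figure D3:**
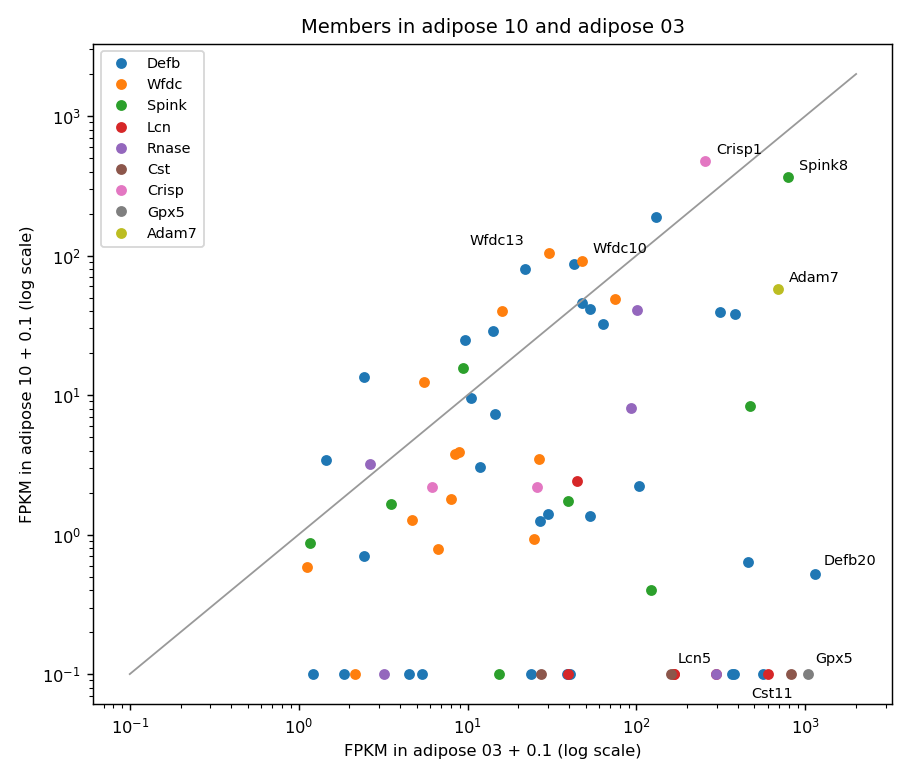
Each point is 1 detected member, by its FPKM in adipose 10 against adipose 03, both plus 0.1 and on log scales, coloured by family, with the line of equal levels. Crisp1, Wfdc10 and Wfdc13 lie above the line and Gpx5, Cst11 and Lcn5 at the floor, where adipose 10 is listed at 0.

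Adipose 10 was not a uniformly reduced adipose 03. Of the 73 detected members, 23 were listed at 0 in adipose 10 (background 4.46%), 3 were above 0 and under 1% of their adipose 03 level, 27 were from 1% to under 50%, 6 from 50% to under 100%, and 14 were higher in adipose 10 (background 42.8%). For 72 members above 0 in both, the ratio of adipose 03 to adipose 41 had a median of 1.498 and ran from 0.341 (Wfdc10) to 5.87 (Cst12). Over the 11562 detected names above 0 in both columns the median ratio was 1.12. Of the 72 members, 57 were higher in adipose 03 and 15 in adipose 41. The 15 were Wfdc10, Lcn9, Lcn5, Defb6, Wfdc17, Wfdc13, Defb43, Defb38, Defb40, Defb11, Crisp2, Gpx5, Wfdc16, Crisp1 and Defb26.

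Members lie in clusters on the mouse genome (mm10). The 7 lipocalins occupy chr2:25490825-25825537, of which 6 were detected and 1 was at 1 FPKM or more in adipose 10. The 3 cystatins at chr2:148768618-148805584 summed to 1007 FPKM in adipose 03, 0 in adipose 10 and 457 in adipose 41. The 14 Wfdc genes at chr2:164176325-164745998 summed to 247, 306 and 314 FPKM in adipose 03, 10 and 41. Clusters were not uniform: the 11 defensins at chr2:152459055-152623053 include Defb28, high in adipose 10, and Defb20 and Defb25, which were at or near 0 there. Members of a cluster are not independent readings, and some share reads.

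The undetected members were 20. Of these, Defb3, Defb14, Defb44-ps, Defb50, Spink3, Spink4, Wfdc12 and Wfdc18 were above 0 but under 1 FPKM in adipose, and Crisp3, Defb4, Defb5, Defb7, Defb8, Defb21, Defb33, Defb46, Lcn11, Spink7, Spink14 and Wfdc5 were listed at 0 in all 6 columns. Defb3, Defb4, Defb5, Defb7 and Defb8 are close paralogs, whose reads can be assigned to one another. In hypothalamus 3 of the 93 members reached 1 FPKM (background 51.7% of all names), Wfdc1, Spink10 and Defb1. In liver 5 did (background 39.3%), Defb1, Wfdc17, Wfdc1, Wfdc2 and Spink3.

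Transcript models gave a second view of the same genes. The 93 members had 185 models in the adipose assembly, 107 in the hypothalamus assembly and 107 in the liver assembly. Members with the most models in adipose numbered 40 (background 12.2% of names), 38 of them detected there, and 51 had the same number in all tissues. The largest lead was that of 6 models, of Spink10 (8 in adipose, 2 in hypothalamus, 1 in liver) and of Defb47 (7, 1 and 1). When a margin of 2 models or more was required, 19 remained to be counted (background 4.34%). Wfdc1 was the 1 member with more models in the other tissues. The number of models rests on the same reads as the FPKM and is not independent of them.

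**Figure D4:**
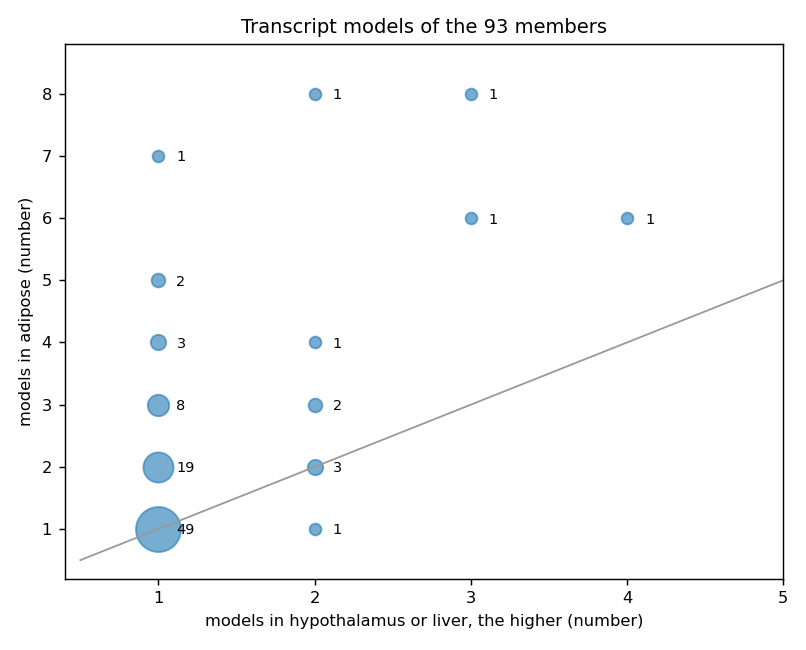
Number of transcript models of the 93 members in adipose (vertical) against the higher of hypothalamus and liver (horizontal), with circle area and figure giving the number of members and the line of equality. There are 40 members above the line and 1 below it.

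Some other markers were high in the same columns. Epididymal genes outside the families by name, of which 21 were in the tables, summed to 1146 FPKM in adipose 03, 220 in adipose 10, 15.1 in adipose 15, 18.0 in adipose 25, 887 in adipose 41 and 2.56 in adipose 42. They are not all separate from the members: Eppin shares its locus with Wfdc8, and Spag11a and Spag11b share theirs with Defb14. Of these 21, 16 were at 1 FPKM or more in adipose 03 and 41 and under it in adipose 15, 25 and 42. The list was chosen with earlier results of these data known, and no background share was computed for this count, so it is descriptive only. Ces5a, an epididymal carboxylesterase, had 56.7 FPKM in adipose 03, 93.02 in adipose 10 and 57.5 in adipose 41 and was listed at 0 in the other 3. Spint3, a Kunitz-type inhibitor, had 17.7, 38.9 and 15.7 FPKM in the same 3 columns. Gpr64, an epididymal adhesion receptor, was less divided, with 68.3 FPKM in adipose 03, 19.0 in adipose 10, 14.9 in adipose 15, 14.4 in adipose 25, 23.6 in adipose 41 and 2.54 in adipose 42. Foxi1, Atp6v1g3 and Atp6v0d2, markers of acid-secreting clear cells, were between 3.37 and 5.99 FPKM in adipose 03 and 41, between 1.31 and 1.47 in adipose 10, and listed at 0 in adipose 15, 25 and 42. Atp6v0d2 also had 2.53 to 6.83 FPKM in liver. Atp6v1b1, also on the clear cell list, was under 1 FPKM, with 0.656 in adipose 03, 0.863 in adipose 41 and 0 in the other adipose columns.

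Epithelial genes, all 11 detected, summed to 313 FPKM in adipose 03, 137 in adipose 10, 10.99 in adipose 15, 79.8 in adipose 25, 189 in adipose 41 and 3.34 in adipose 42. Among the adipose columns, Krt8 and Krt18, keratins of simple epithelia, and Cldn3, a tight junction protein, were highest in adipose 03. They had 62.9, 87.6 and 43.9 FPKM there. In liver they ran from 33.0 to 66.7, from 44.0 to 79.1 and from 25.6 to 64.3 FPKM. Epcam, on the same list, had 6.81 FPKM in adipose 03 and was listed at 0 in the other adipose columns. Adipose 25 held Krt8 at 32.1 FPKM although its family members summed to 16.6 FPKM. Mesothelium genes summed to 33.0, 7.14, 17.9, 7.63, 43.1 and 14.9 FPKM in column order, led by Upk3b, Msln and Lrrn4. Adipose 41 and 03 were again the highest, but adipose 10 was the lowest. Of the 11 seminal vesicle and prostate genes 0 were detected, and 9 were listed at 0 in all 6 columns, among them Svs1, Svs2 and Svs3a. Of the 11 Leydig and Sertoli cell genes 2 were detected, Sox9 and Cyp17a1, and 8 were listed at 0, among them Insl3, Cyp11a1 and Fshr, while Inha reached 0.997 FPKM at most. Germ cell genes summed to 10.8, 1.41, 6.64, 1.58, 6.41 and 3.29 FPKM in column order, with 6 of the 10 detected. Sycp3, a meiotic protein, was between 1.12 and 6.64 FPKM in all 6 columns. The sperm chromatin genes Prm1, Prm2, Tnp1 and Tnp2 had 2.86, 1.40, 2.55 and 2.14 FPKM in adipose 03 and 0.464 FPKM or less elsewhere in adipose, and Dazl, Sycp1, Stra8 and Acrv1 were listed at 0. Ribosomal protein genes were also highest in adipose 03 and 41: Rplp0 had 646 and 498 FPKM there, against 254 to 346 FPKM in the other 4, and Rps18 had 462 and 308, against 153 to 205 FPKM. The part of these genes and of the cells they mark in the family levels was not tested.

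**Figure D5:**
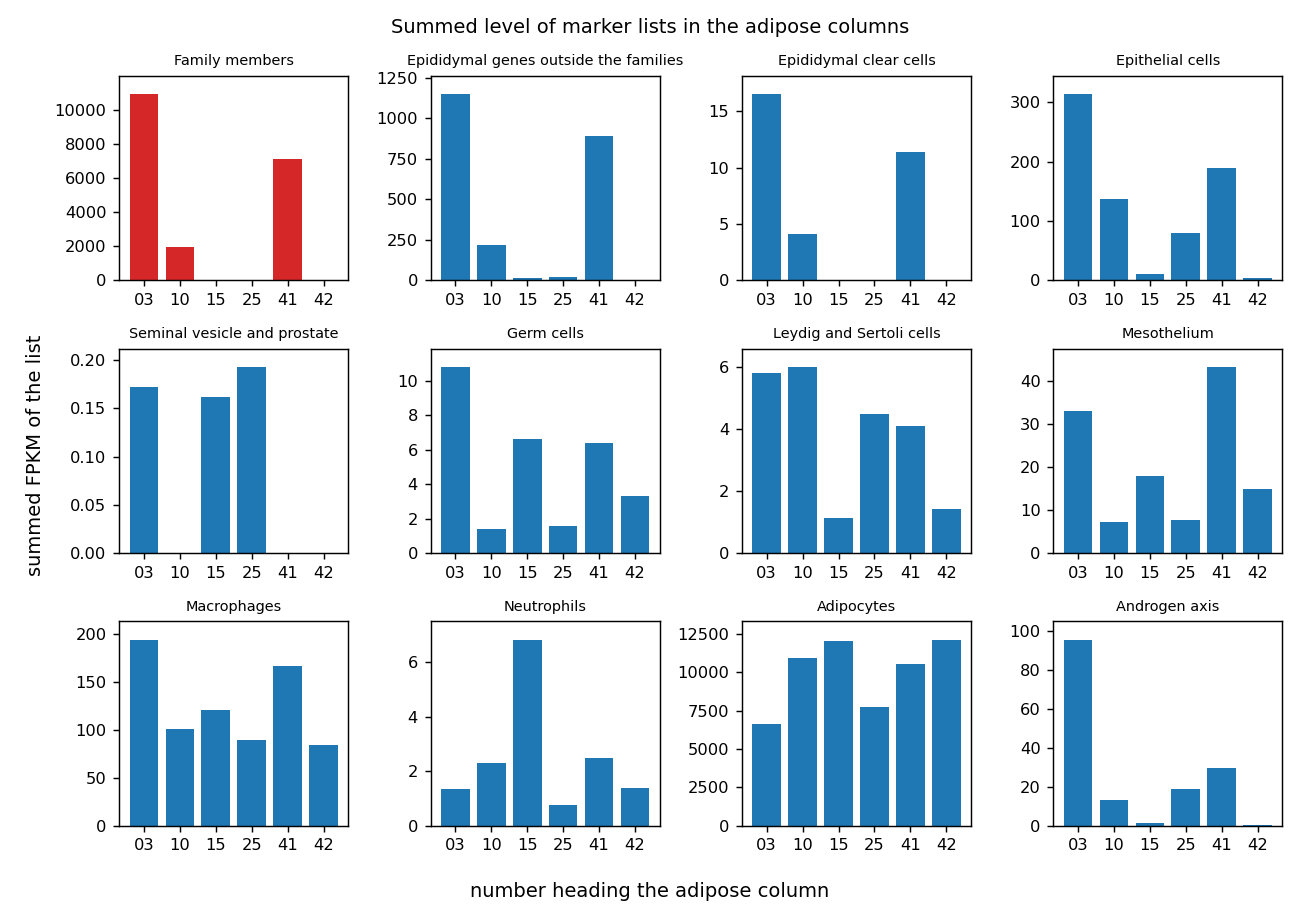
Summed FPKM of the family members (red) and of 11 marker lists (blue) in the 6 adipose columns, each panel on its own linear axis from 0. The epididymal genes outside the families (1146, 220 and 887 FPKM in adipose 03, 10 and 41) and clear cell genes stand high in the same columns as the members, and adipocyte genes do not. Epithelial, mesothelium, macrophage and androgen axis sums are also highest in adipose 03 and 41.

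Adipocyte genes were not lowest in all columns that held the members. They summed to 6639 FPKM in adipose 03, 10921 in adipose 10, 12010 in adipose 15, 7745 in adipose 25, 10530 in adipose 41 and 12099 in adipose 42, led by Fabp4, Cfd and Adipoq. Adipose 25, low in the members, was thus nearer to adipose 03 than to adipose 15 in adipocyte genes. Neutrophil genes, led by S100a8, S100a9 and Camp, summed to between 0.766 and 6.802 FPKM and were highest in adipose 15. Of 3 androgen axis genes, Srd5a2, which makes dihydrotestosterone and is abundant in epididymis, had 93.6 FPKM in adipose 03, 13.5 in adipose 10, 1.43 in adipose 15, 14.9 in adipose 25, 20.1 in adipose 41 and 0 in adipose 42, highest in adipose 03. Srd5a1, the other reductase, was 2.05 FPKM or less in adipose, and Fkbp5, a hormone-induced co-chaperone, was listed at 0 there except in adipose 25 (3.30 FPKM) and adipose 41 (8.84 FPKM).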

How the data were processed

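Poly-A RNA was made into TruSeq libraries and sequenced on a HiSeq2500, per the labels' protocols. The submitters' processing notes name StringTie 1.0.4, HISAT 0.1.6 and the build mm10, and the deposited workbook's own name mentions Cufflinks. Annotation, strandedness and what each tool was used for are not given in the sources used here. The values deposited by the authors are FPKM in 6 tables, 2 for each tissue (genes and transcript models), per the file headers. FPKM of all models of a name were summed per column with Python 3.11.15 and pandas 2.3.3. Cells that were not numbers (13 in adipose 03, 9 in hypothalamus 03, 9 in liver 03, none in a member) were left out. Each column was mapped to its tissue alone, and 0 expression columns were unused. Nothing says whether same-tissue samples are littermates. Each member at 1 FPKM or more in an adipose column is named. The 12 with the highest adipose median and Spink8, Wfdc10 and Lcn5 have their values given, and the leading 3 genes of each marker list are named. Members, lists and rules were chosen with earlier results of these data known. The planned correlations used log2(FPKM + 1) and gave no value, so no p-value is reported. The counting code was tested on simulated data. Alternatives were other thresholds, the gene tables, the highest model, models of the same span counted once, upper-quartile scaling and leaving out columns. Of the marker lists, 1 gene was left out and is not reported here.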

Additional observations from a re-analysis of the deposited data

Results flagged for a closer look

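Dixon's criterion marks 1 column far above the rest in a group of 6 columns. Chance meets it in at most about 1 group in 20 when the values follow a single normal distribution. For many members several adipose columns were listed at 0, so that rate need not apply there. The number of groups screened is not given, so whether more were marked than chance would give cannot be told. Members that share a column or a cluster are not independent. Some members had 1 column far above the rest by this criterion. In adipose 03 this held for Cst8, a cystatin (160 FPKM, next 49.5), Defb30 (53.0, next 18.9), Spink2 (39.3, next 11.3), Cst12 (27.0, next 4.60), Wfdc9 (26.4, next 9.07), Crisp4 (25.6, next 8.71), Defb45 (23.8, next 4.50), Spink5 (15.3, next 4.36), Defb35 (4.39, next 1.06) and Defb34 (1.75, next 0). The next highest value was in adipose 41 for each of these except Defb34, which was listed at 0 there. In adipose 10 it held for Defb40, at 13.4 FPKM with 3.12 next, a gene with close paralogs. Outside adipose, Defb1 was at 14.0 FPKM in liver 13 with 11.2 next, and Wfdc1 at 5.94 FPKM in hypothalamus 25 with 4.70 next.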

How the results depend on the processing

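Of the alternatives computed, 5 moved a count by over 1.5 times, and the others left each count within 1.5 times and each median within the SD of the 6 columns, which is wide. The number of detected members was 44 without adipose 03 and 41 and 6 without adipose 03, 10 and 41, both chosen after seeing the data, and 70 to 73 when 1 adipose column was left out. At 5 FPKM the number in adipose 03, 10 and 41 only was 22, against 38 at 1 FPKM, and with a lead of 2 models the number with the most models in adipose was 19, against 40. Both settings were chosen after seeing the data. Members with every adipose column above every hypothalamus and liver column were 0 to 3 when 1 column was left out, with 3 reached without adipose 42. The number of members highest in an adipose column was 69 to 73 and the number highest in 1 shared column 52 to 59. The median of Spink8 was 177 FPKM and ran from 0.206 to 353, that of Wfdc10 was 23.7 and ran from 0 to 47.4, and that of Lcn5 was 0 in each, since 3 or 4 of the 6 columns are near 0. The gene tables gave 102 FPKM for Spink8 and 9.40 for Wfdc10, and the highest model alone gave 86.1 for Spink8. The planned correlations and their alternatives gave no value. No paired analysis was possible because the numbers heading the expression columns match no replicate number of the labels and no result comes from a test. With depth unknown, low values such as those of Defb34 or Spink6 have no counting interval.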

Other observations

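A rule chosen after seeing the data asked for 10 FPKM or more in adipose 03 and 41. It also asked for under 1 FPKM in adipose 15, 25 and 42. Of the 93 members, 42 met it. Outside the families 43 other names met it, with 23905 names in all, members included. Of the 43, 13 were on the list of epididymal genes and 8 reached 1 FPKM in a hypothalamus or liver column. The most abundant in adipose 03 were Gm15386, which shares its locus with Defb41 (1281 FPKM in adipose 03, 902 in adipose 41), D730048I06Rik (353 and 216 FPKM) and Slc38a5, an amino acid transporter (363 and 154 FPKM). C4bp, a complement inhibitor made by liver, had 127 FPKM in adipose 03, 9.48 in adipose 10 and 66.2 in adipose 41, with 125 to 206 FPKM in liver. Serpina1f, of the serine protease inhibitor family, had 97.8, 48.8 and 66.0 FPKM in adipose 03, 10 and 41 and 0 to 47.6 FPKM in liver. Npy, the gene of neuropeptide Y, had 21.4, 69.5 and 23.2 FPKM in the same columns and 0 in the other adipose columns, so that adipose 10 was the highest, as for Crisp1, and 13.5 to 52.2 FPKM in hypothalamus.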
